A study of Apostichopus japonicus with 3 samples.

Results

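The antioxidant and glutathione enzymes of the respiratory tree were followed through summer dormancy in the sea cucumber Apostichopus japonicus. They were chosen by the protein name that the authors' files give each isotig, an assembled transcript of a reference transcriptome. Names holding glutathione, peroxiredoxin, thioredoxin, superoxide, catalase, glutaredoxin, peroxidase, peroxidasin, metallothionein, selenoprotein or glutamate cysteine ligase were taken, and names with thioredoxin domain-containing or disulfide were left out, which removed 5 isotigs. This gave 66 of the 20991 isotigs with a read in any library. Among the 66 is thioredoxin domain containing 11-like (isotig18508, 15 reads in all), which stayed in because its name lacks the hyphen. Comparisons were made for isotigs with 20 reads or more in the 3 libraries together, which 45 members reached, as did 10896 isotigs in all, 5686 of them with a protein match. The remaining 21 members had too few reads to be called higher or lower in the main counts. They enter the sums of reads given for each role or name, and a few are also described singly by their reads.

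The respiratory tree is a branching, water-pumped organ of gas exchange. Total RNA was taken from it at non-aestivation, when animals are active, at deep aestivation, when they are dormant, and at arousal from aestivation. There was 1 poly(A)-selected library per stage, at least 15 individuals per stage were used, and how their RNA was combined is not stated in the labels, which give neither strain, age nor sex. With 1 library per stage no difference has a replicate check, a stage and its library cannot be told apart, no p-value is given, and each comparison is between libraries. No protein name is known to define the sea cucumber respiratory tree, so the tissue label could not be checked by a marker.

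Superoxide dismutases turn superoxide into hydrogen peroxide, and catalase and peroxiredoxins then break the peroxide down. Thioredoxin and glutathione carry the electrons for peroxide and thiol repair, and their reductases recharge them at the cost of NADPH. Glutathione S-transferases attach glutathione to oxidised lipids and foreign chemicals, and several selenoproteins act in thiol chemistry or carry selenium. In many animals that tolerate dormancy or low oxygen these enzymes are studied because oxygen uptake drops and then returns.

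Values are given in the order non-aestivation, deep aestivation, arousal unless the stages are named. Uniquely assigned reads came to 0.941, 0.887 and 0.963 M (1e6) per library, and levels are in RPKM, reads per kilobase of isotig and per 1e6 reads. The line for calling a member higher or lower was a difference of 1 (2-fold) on the log2(RPKM + 0.5) scale, on which changes of rare transcripts look smaller than they are. Fold values are ratios of read rates with an exact 95% interval that covers counting error only. The summed reads of transcripts named for germ cells differed between the same libraries. Their 41 isotigs, 18 of them with at least 20 reads, held 613, 319 and 281 reads in the 3 stages. The isotigs did not move alike. The sperm protein bindin held 61, 0 and 0, and the best counted, sperm acrosomal protein-like, 35, 40 and 35. Of the 18, 6 were at least 2-fold lower in deep aestivation and 0 higher, beside 24.2% and 8.00% of isotigs with a protein match. The median log2 ratios were -0.30 and -0.36. The muscle list (34 isotigs) held 3264, 2720 and 2451 reads, the cilia list (41) 388, 276 and 208, and the list for coelomocytes, the immune cells of the body cavity (35), 1963, 1068 and 1309. Within these lists, too, isotigs differed. Myosin heavy chain (isotig06040) had 1198, 431 and 501 reads and titin-like (isotig13411) 762, 1101 and 809. Complement component 3-2 (isotig29329) had 741, 130 and 138, and a C-type lectin domain protein (isotig15031) 132, 437 and 248. Of 18 muscle isotigs with at least 20 reads, 5 were at least 2-fold lower in deep aestivation and 0 higher. For cilia it was 1 and 2 of 13, and for coelomocytes 8 and 4 of 20, beside the same 24.2% and 8.00%. The part of these cells in the results was not tested, and in bulk tissue fewer cells of a type and less RNA per cell cannot be told apart.

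In deep aestivation the main catalase and the copper/zinc superoxide dismutase-like isotig had 1.37-fold and 1.55-fold more reads than in non-aestivation, short of the 2-fold line, while glutathione reductase, a thioredoxin and 7 of 14 glutathione S-transferases fell past it. Of the 45 members, 13 were at least 2-fold lower in deep aestivation, 2 were higher and 30 lay within 2-fold. The background was high, with 18.6% of all isotigs and 24.2% of those with a protein match lower, and 13.1% and 8.00% higher. The members' shares of 28.9% and 4.44% are near those of isotigs with a protein match, so the count for the group as a whole is not a result about these enzymes. The median log2 ratio was -0.73 for the members, -0.36 for isotigs with a protein match and -0.12 for all isotigs. Among isotigs with at least 100 reads, the better counted ones, 5 of 19 members were lower and 1 higher, beside 18.7% and 7.88% of isotigs with a protein match, and the medians were -0.40 and -0.30. TMM scaling, which sets library totals by the bulk of isotigs, left 10 of the 45 lower and 3 higher, and centring the ratios on isotigs with a protein match left 7 and 3. Background shares were not recomputed under either scaling.

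**Figure D1:**
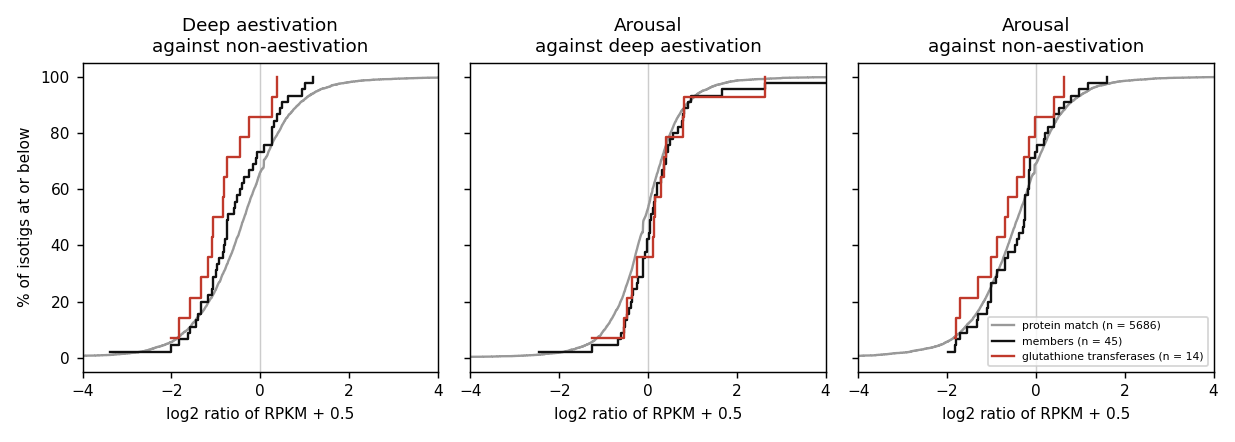
Cumulative share of isotigs (vertical axis, percent) at or below each log2 ratio of RPKM + 0.5 (horizontal axis) in the 3 comparisons, for the 45 members, for 14 glutathione S-transferases among them and for all 5686 isotigs with a protein match. In deep aestivation against non-aestivation the members' median lies at -0.73 and that of isotigs with a protein match at -0.36. In arousal against deep aestivation all lie close to 0.

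Together the 66 members took 0.394% of all reads before dormancy (exact binomial interval 0.382 to 0.407), 0.332% during it (0.320 to 0.344) and 0.341% on arousal (0.330 to 0.353). The sum was 1.19-fold lower in deep aestivation (1.13 to 1.25), and it turned to a ratio of 1.08 when centred on isotigs with a protein match. The 16 selenoprotein isotigs held the largest part, with 1410, 1071 and 1350 reads. The 22 glutathione S-transferase isotigs held 993, 624 and 743 reads, the 7 superoxide dismutases 511, 477 and 484, the 2 catalases 386, 489 and 352, and the 5 peroxiredoxins 221, 176 and 240. The reductases (3 isotigs), thioredoxins (4), glutaredoxins (2), haem and other peroxidases (4) and glutathione synthetase (1) each held at most 101 reads in a library. None of the isotigs analysed here was named glutathione peroxidase, metallothionein or glutamate cysteine ligase.

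**Figure D2:**
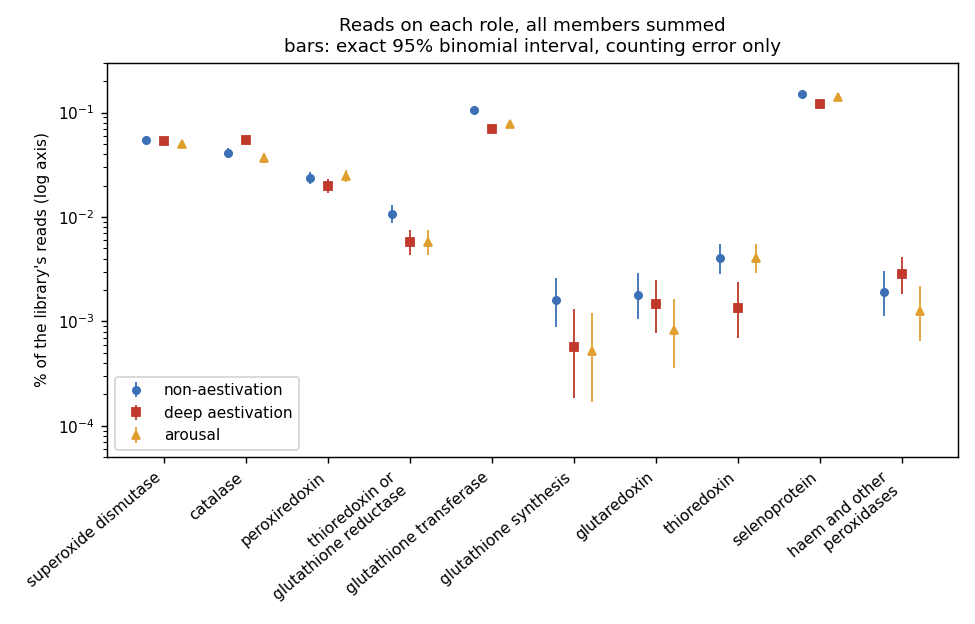
Percent of each library's reads (log axis) on all member isotigs of a role, with exact 95% binomial intervals that cover counting error only, in 1 library per stage. Catalase stands highest in deep aestivation (0.0551%), and glutathione S-transferases are highest in non-aestivation (0.1055%). Superoxide dismutases, counted with the weakly matched isotig14304, are nearly level.

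Superoxide dismutases as a role had a ratio of 0.990 in deep aestivation (0.872 to 1.12), or 1.07 with TMM scaling, with members that differed. This sum includes the weakly matched isotig14304, described below, whose own ratio was 0.602 (0.444 to 0.809). Without that isotig the ratio of the role would be higher. The copper/zinc superoxide dismutase-like isotig17129 had 154, 225 and 180 reads, or 157, 243 and 179 RPKM. It was highest in dormancy, 1.55-fold above non-aestivation (1.26 to 1.92), and in arousal 1.14-fold (0.916 to 1.43), an interval that holds equal rates. A second name, Cu-Zn superoxide dismutase, matched a protein of this very species on a pair of isotigs of nearly equal length (1479 and 1478 bases), between which unique counting may split reads. Its summed reads were 66, 49 and 78, so it did not follow isotig17129, being 1.27-fold lower in deep aestivation (0.864 to 1.88) and then 1.47-fold higher in arousal (1.01 to 2.14). The sum over all 3 copper/zinc isotigs was 1.32-fold higher in deep aestivation (1.10 to 1.59).

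The mitochondrial manganese superoxide dismutase (isotig14099), which guards the respiratory chain, stood at 90.8, 71.0 and 81.4 RPKM from 144, 106 and 132 reads. It was lowest in dormancy by 1.28-fold (0.989 to 1.66), a difference not detectable at this depth. With the rare manganese superoxide dismutase isotig15621 (11, 5 and 5 reads) added, the sum was 1.32-fold lower (1.02 to 1.69). A rarer isotig named superoxide dismutase-like, partial (isotig09783) had 9, 20 and 29 reads and was 2.36-fold higher in deep aestivation (1.03 to 5.88) and 3.15-fold higher in arousal (1.45 to 7.56) than in non-aestivation. Isotig14304 matched, at an E-value of 9.61e-07, a sea urchin protein model described as vitellogenin fused with superoxide dismutase, and the files do not say which part of that model it resembles. It had 127, 72 and 60 reads and was 2.17-fold lower in arousal than in non-aestivation (1.58 to 2.995), a call that TMM scaling puts just inside 2-fold at a log2 ratio of -0.99.

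Catalase, which splits hydrogen peroxide in peroxisomes, was highest in deep aestivation. The main isotig06118 had 352, 455 and 323 reads over 3227 bases, or 116, 159 and 104 RPKM. It was 1.37-fold higher in deep aestivation (1.19 to 1.58), and arousal was 1.53-fold below deep aestivation (1.32 to 1.77), with non-aestivation and arousal side by side. The second isotig, isotig06119, had 34, 34 and 29 reads. The sum of both was 1.34-fold higher in deep aestivation (1.17 to 1.54), 1.45-fold with TMM scaling.

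Among the peroxiredoxins, which reduce peroxides with a reactive cysteine, peroxiredoxin-5 (isotig14528, matched in this species) was the abundant one. It had 173, 152 and 205 reads, or 120, 112 and 139 RPKM, and the ratio of deep aestivation to non-aestivation was 0.932 (0.745 to 1.17). The mitochondrial thioredoxin-dependent peroxide reductase (isotig17856) behaved otherwise, with 30, 14 and 15 reads. It was 2.02-fold lower in deep aestivation by read rate (1.04 to 4.12), just inside the line on the log2(RPKM + 0.5) scale at -0.99, and 2.05-fold lower in arousal (1.07 to 4.09), a call lost with TMM scaling at -0.90. Peroxiredoxin 6-like was spread over 3 isotigs of equal length whose reads cannot be assigned to one of them with confidence. Isotig05338 alone had 7, 0 and 13 reads and counts among the 13 members that fell, but the sum of the 3 was 18, 10 and 20 reads, 1.70-fold lower in deep aestivation (0.742 to 4.11).

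Thioredoxin 2-like and the reductases had fewer reads in dormancy. Thioredoxin 2-like (isotig10845), a small dithiol protein, had 24, 7 and 25 reads, or 26.1, 8.08 and 26.6 RPKM. It fell 3.23-fold in deep aestivation (1.35 to 8.88), and arousal was 3.29-fold above deep aestivation (1.38 to 9.01), at the level of non-aestivation. Glutathione reductase (isotig20794), which returns oxidised glutathione to its reduced form, had 40, 14 and 16 reads, or 57.4, 21.3 and 22.5 RPKM. It fell 2.69-fold in deep aestivation (1.43 to 5.36) and, unlike the thioredoxin, was still 2.56-fold lower in arousal (1.40 to 4.89).

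Thioredoxin reductase, the selenium enzyme that recharges thioredoxin, had 2 isotigs. TrxR1 (isotig26887) had 24, 13 and 12 reads and thioredoxin reductase 1-like (isotig17891) 37, 24 and 27. Their sum was 1.55-fold lower in deep aestivation (1.02 to 2.40) and 1.60-fold lower in arousal (1.05 to 2.46). TrxR1 alone passed 2-fold in arousal, at a log2 ratio of -1.02, and not with TMM scaling (-0.90). All 3 reductase isotigs were highest in non-aestivation, as were 57.0% of isotigs with a protein match.

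Glutathione synthetase-like (isotig19582), the last step in making glutathione, had 15, 5 and 5 reads. It was 2.83-fold lower in deep aestivation (0.977 to 9.94) and 3.07-fold lower in arousal (1.06 to 10.8). Glutaredoxin-related protein 5, which in other animals serves iron-sulphur cluster assembly in mitochondria, had 17, 13 and 8 reads over its 2 isotigs. Its interval in deep aestivation (ratio 0.811, 0.362 to 1.77) allows change in either direction.

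Glutathione S-transferases were the role with most members that fell. Of the 14 isotigs compared, 7 were at least 2-fold lower in deep aestivation and 0 higher, with a median log2 ratio of -0.95, beside 24.2% lower and -0.36 for isotigs with a protein match. Several isotigs carry 1 name. Summed over names, 5 of 11 names were lower and 0 higher, 5 of 14 isotigs were lower with TMM scaling, and 3 of 14 after centring on the protein-matched isotigs. The share of 24.2% was not recomputed for name sums or these scalings, so these counts have no background of their own. The reads of all 22 isotigs summed had a ratio of 0.667 in deep aestivation (0.602 to 0.738) and were 1.37-fold lower in arousal (1.24 to 1.51) than in non-aestivation. The direction stayed lower under each of the 4 other scalings tried, at 1.17-fold or more in deep aestivation and 1.03-fold or more in arousal.

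The classes did not move alike. The alpha class, 3 isotigs of 1 name, had 267, 128 and 197 reads and was 1.97-fold lower in deep aestivation (1.59 to 2.45). Isotig08777 held most of these reads (216, 114 and 163). Arousal was 1.42-fold above deep aestivation for the class (1.13 to 1.79), while isotig17015 within it had 36, 11 and 10 reads and was 3.68-fold lower in arousal than in non-aestivation (1.79 to 8.32). Omega 1, a class that in mammals reduces dehydroascorbate, had 77, 36 and 56 reads over 2 isotigs and was 2.02-fold lower in deep aestivation (1.34 to 3.08). Its main isotig21949 (56, 25 and 35 reads) was 2.11-fold lower (1.296 to 3.53), which TMM scaling puts just inside 2-fold.

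The sigma class, which in some animals serves prostaglandin synthesis and in others detoxification, had 81, 43 and 38 reads over 8 isotigs. It was 1.78-fold lower in deep aestivation (1.21 to 2.63) and 2.18-fold lower in arousal (1.47 to 3.30) than in non-aestivation. Its main isotig23944 had 34, 14 and 17 reads and was 2.29-fold lower in deep aestivation (1.20 to 4.62), a call lost when centred on isotigs with a protein match, at -0.82. The theta class was level, with 44 and 42 reads in the first 2 stages and 32 in arousal. In it theta-1-like (isotig17656) had 22, 27 and 12 reads and was 2.44-fold lower in arousal than in deep aestivation (1.20 to 5.29).

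The microsomal forms are membrane proteins of a separate family that share the name and the reaction. Microsomal glutathione S-transferase 3-like (isotig13637) had 77, 34 and 65 reads, or 42.6, 19.95 and 35.1 RPKM. It was 2.13-fold lower in deep aestivation (1.41 to 3.30), just inside 2-fold with TMM scaling at -0.96, and arousal was 1.76-fold above dormancy (1.15 to 2.75). Microsomal glutathione S-transferase 2 (isotig17791) instead had 101, 80 and 67 reads and was lowest in arousal, 1.54-fold below non-aestivation (1.12 to 2.13). Another, isotig27363, had 23, 6 and 7 reads and fell 3.61-fold in deep aestivation (1.43 to 10.8).

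The isotigs without a class in their name split in opposite directions. Glutathione-S-transferase (isotig16538) had 145, 54 and 42 reads, or 137, 54.3 and 38.9 RPKM. It fell 2.53-fold in deep aestivation (1.84 to 3.53) and was 3.53-fold lower in arousal (2.49 to 5.11), the best counted of the members past 2-fold lower in both. Centred on isotigs with a protein match, it lay just inside 2-fold in deep aestivation, at -0.97. Glutathione S-transferase 1 (isotig14824, matched in a roundworm) had 170, 193 and 230 reads, or 124, 150 and 164 RPKM. It was 1.20-fold higher in deep aestivation (0.975 to 1.49) and 1.32-fold higher in arousal (1.08 to 1.62). By RPKM isotig16538 led the role in non-aestivation and isotig14824 in the other stages. The lead in non-aestivation, 137 against 124 RPKM, was small and has no interval.

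**Figure D3:**
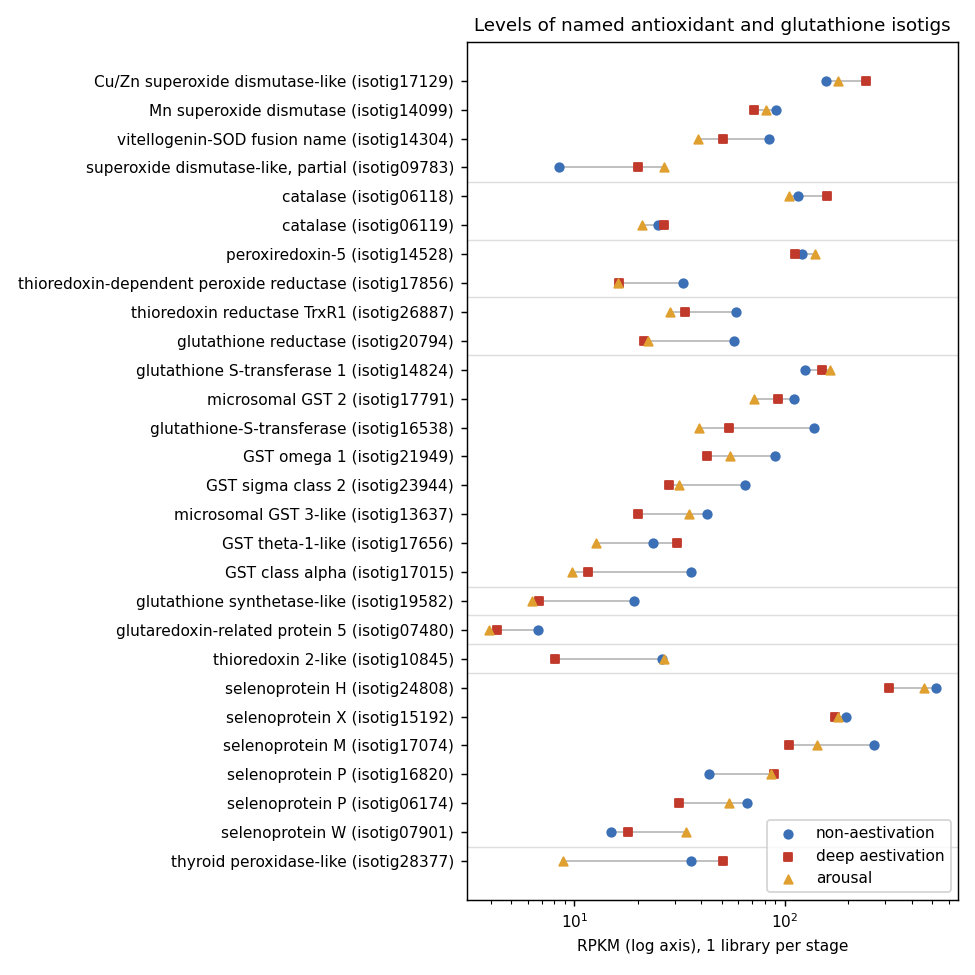
RPKM (log axis) of the 28 member isotigs named by rule, in 1 library per stage, grouped by role. Copper/zinc superoxide dismutase-like and catalase have their deep aestivation point to the right (243 and 159 RPKM), while glutathione reductase, glutathione-S-transferase and selenoprotein M have it to the left of non-aestivation (21.3, 54.3 and 104 RPKM).

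Selenoproteins carry selenocysteine, and several of them are thiol-active proteins with a thioredoxin-like fold. They held the most reads of the 10 roles, and 2 of the 12 compared were lower in deep aestivation, 1 higher and 9 within 2-fold. These 16.7% and 8.33% are near the background of 24.2% and 8.00% for isotigs with a protein match. The summed reads were 1.24-fold lower (1.15 to 1.34), or 1.15-fold with TMM scaling, and this direction reversed to a ratio of 1.03 when centred on isotigs with a protein match. Selenoprotein H (isotig24808), in mammals a nuclear protein, had the highest RPKM of all members in each stage, at 522, 313 and 459, from 260, 147 and 234 reads. Its protein match is weak, with an E-value of 1.98e-06. It was 1.67-fold lower in deep aestivation (1.36 to 2.05), and arousal was 1.47-fold above deep aestivation (1.19 to 1.81).

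Selenoprotein M and the 15 kDa selenoprotein, in mammals thiol proteins of the endoplasmic reticulum, were both lower in deep aestivation, to different degrees. Selenoprotein M (isotig17074) had 262, 97 and 144 reads, or 265, 104 and 142 RPKM. It fell 2.55-fold in deep aestivation (2.01 to 3.25) and was 1.86-fold lower in arousal than in non-aestivation (1.51 to 2.297). Centred on isotigs with a protein match, its deep aestivation value lay just inside 2-fold, at -0.99. The 15 kDa selenoprotein-like isotig16054 had 222, 158 and 173 reads and was 1.32-fold lower in deep aestivation (1.07 to 1.63).

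The other well-counted selenoproteins took different courses. Putative selenoprotein X (isotig15192), a name that in mammals belongs to a methionine sulphoxide reductase, had 249, 209 and 233 reads, a ratio of 0.891 (0.737 to 1.07) in deep aestivation. Selenoprotein W2 (isotig14181), a small cytosolic form, had 230, 269 and 338 reads, or 148, 183 and 212 RPKM, and was 1.24-fold higher in deep aestivation (1.04 to 1.49) and 1.44-fold higher in arousal (1.21 to 1.71). Selenoprotein W (3 isotigs) had 36, 39 and 56 reads, and isotig07901 alone was 2.28-fold higher in arousal than in non-aestivation (1.21 to 4.495). Selenoprotein L, described in fish, had 39, 19 and 25 reads over 3 isotigs and was 1.93-fold lower in deep aestivation (1.09 to 3.54). Selenoprotein N, in mammals a protein of the endoplasmic reticulum linked to muscle, had 14, 16 and 12 reads.

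Selenoprotein P, in mammals the secreted carrier of selenium, gave opposite results on the 2 isotigs with that precursor name, whose best matches lie in different species. Isotig16820 had 44, 84 and 89 reads, or 43.6, 88.2 and 86.1 RPKM, and was 2.03-fold higher in deep aestivation (1.39 to 2.99) and 1.98-fold higher in arousal (1.36 to 2.91) than in non-aestivation. Isotig06174 had 49, 22 and 41 reads and was 2.10-fold lower in deep aestivation (1.25 to 3.65), just inside 2-fold with TMM scaling at -0.95. Their sum was 93, 106 and 130 reads, 1.21-fold higher in deep aestivation (0.907 to 1.62). Another isotig, named selenoprotein P without the word precursor (isotig06172), stays outside that sum and had 1, 9 and 2 reads, a ratio of 9.55 in deep aestivation with a wide interval (1.32 to 419).

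Peroxidases that use haem were rare. Thyroid peroxidase-like protein (isotig28377), of a family that oxidises halides or tyrosine, had 12, 16 and 3 reads and was 5.79-fold lower in arousal than in deep aestivation (1.66 to 31.0). Peroxidasin, which cross-links basement membrane collagen, had 6, 9 and 4 reads. Both ovoperoxidase isotigs, named for the enzyme that hardens the sea urchin fertilisation envelope, had 0 reads outside arousal, where they had 3 and 2. A count of 0 allows up to 3 reads, so this difference was not detectable at this depth.

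**Figure D4:**
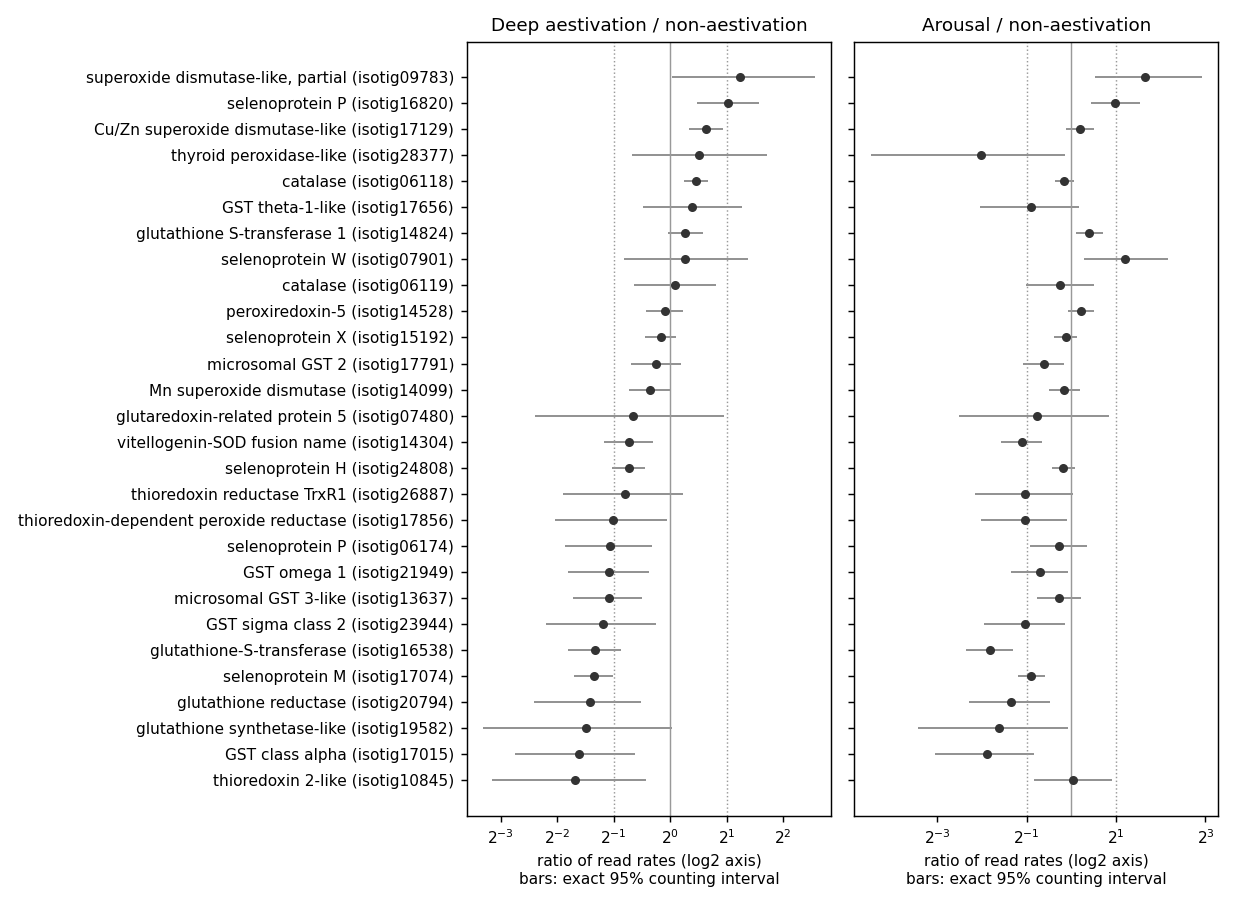
Ratio of read rates (log2 axis) of the 28 named isotigs in deep aestivation and in arousal, each against non-aestivation, with exact 95% counting intervals and dotted lines at 2-fold. Superoxide dismutase-like, partial (2.36 and 3.15) lies to the right in both panels, glutathione-S-transferase (0.395 and 0.283) to the left in both, and thioredoxin 2-like moves from 0.309 to 1.02.

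The comparison of arousal with deep aestivation showed few differences, in the members and in the background. Of the 45 members 3 were at least 2-fold higher and 2 lower, against 8.06% and 8.93% of all isotigs and 7.63% and 9.71% of those with a protein match. The members' 6.67% and 4.44% are near or below these shares, so the small count is not a result about these enzymes. The 3 higher were thioredoxin 2-like, the alpha class isotig08778 (3 and 24 reads) and peroxiredoxin isotig05338 (0 and 13), and the 2 lower were theta-1-like and thyroid peroxidase-like. Of the 19 members with at least 100 reads, 0 passed 2-fold in either direction, beside 3.99% and 5.14% of isotigs with a protein match, although the counting interval of several left out equal rates, among them catalase, copper/zinc superoxide dismutase-like, selenoprotein H and selenoprotein M. The members' median log2 ratio was 0.07, beside -0.07 for isotigs with a protein match.

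Arousal set against non-aestivation had 12 members lower and 2 higher of 45. In the background 18.8% of all isotigs and 25.6% of those with a protein match were lower, and 12.5% and 6.68% higher, so the members' 26.7% and 4.44% are again close to isotigs with a protein match. The median log2 ratio was -0.26, beside -0.40 for isotigs with a protein match. Of the 19 with at least 100 reads, 2 were lower and 0 higher, beside 18.3% and 6.25%. TMM scaling left 7 of the 45 lower and 3 higher, and centring on isotigs with a protein match 5 and 5, with glutathione reductase among those no longer past 2-fold, at -0.93. Here too the background shares were not recomputed under either scaling. Both comparisons use the same non-aestivation library, so they are not independent. The highest RPKM was in non-aestivation for 28 of the 45 members (62.2%), beside 57.0% of isotigs with a protein match, and the lowest was in deep aestivation for 22 (48.9%), beside 37.2%.

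The genes around these enzymes were looked at by name as well. NADPH, which both reductases spend, comes in part from the pentose phosphate pathway, and its 4 well-counted isotigs were lower in deep aestivation. Being lower was common, as 65.1% of isotigs with a protein match and at least 100 reads had a log2 ratio below 0, with a median of -0.30. Glucose-6-phosphate 1-dehydrogenase-like (isotig08925), the entry step, had 310, 143 and 208 reads, or 153, 74.8 and 100.3 RPKM, and was 2.04-fold lower (1.67 to 2.51), a call lost with TMM scaling at -0.91. The next dehydrogenase, 6-phosphogluconate dehydrogenase (isotig03827), had 486, 331 and 348 reads and was 1.38-fold lower (1.20 to 1.60). Transketolase-like protein 2 was 1.94-fold lower (1.60 to 2.37) and transaldolase-like 1.64-fold lower (1.35 to 2.003). Of the 10 isotigs of the NADPH list 6 had at least 20 reads, and 2 of these passed 2-fold lower in deep aestivation and 0 higher, beside 24.2% and 8.00% of isotigs with a protein match. One was glucose-6-phosphate 1-dehydrogenase-like and the other cytosolic NADP-dependent isocitrate dehydrogenase (isotig07783) with 26, 7 and 3 reads. Mitochondrial NADP isocitrate dehydrogenase (isotig03728) had 12, 14 and 28 reads.

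Dual oxidase-A (isotig13477), a membrane enzyme that makes hydrogen peroxide from NADPH and oxygen, was above every antioxidant member in RPKM and was highest in arousal. It had 1870, 2705 and 3690 reads, or 956, 1467 and 1843 RPKM. It was 1.53-fold higher in deep aestivation (1.45 to 1.63) and 1.93-fold higher in arousal (1.82 to 2.04) than in non-aestivation, short of the 2-fold line, which TMM scaling passed in arousal at 1.06. A second name, dual oxidase 1 (isotig10117), had 69, 37 and 61 reads and did not follow it, being 1.76-fold lower in deep aestivation (1.16 to 2.70). Of the 6 isotigs in the list of oxidant-forming enzymes 5 had at least 20 reads. In deep aestivation 1 of these was lower and 0 higher, beside 24.2% and 8.00% of isotigs with a protein match. The lower one was xanthine dehydrogenase-like (isotig22825) with 35, 3 and 1 reads.

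The oxidant-sensing list held 8 isotigs, 6 of them with at least 20 reads. In deep aestivation 1 of the 6 was higher and 1 lower, beside 8.00% and 24.2% of isotigs with a protein match. Nuclear factor, erythroid derived 2 (isotig06127) is named for a family of transcription factors that in vertebrates includes activators of antioxidant genes, and the name does not say which of them it is. It had 200, 418 and 326 reads, or 88.5, 196 and 141 RPKM, 2.22-fold higher in deep aestivation (1.87 to 2.64) and 1.59-fold higher in arousal (1.33 to 1.91). A rarer isotig of that name, isotig06128, had 20, 25 and 23 reads, a ratio of 1.33 in deep aestivation (0.707 to 2.52). Isotig06129, named nuclear factor erythroid 2-like 1-like, had 19, 24 and 11 reads, a ratio of 1.34 (0.704 to 2.59). It was 2.37-fold lower in arousal than in deep aestivation (1.12 to 5.36). Kelch-like ECH-associated protein 1 (isotig21863), which in vertebrates inhibits a member of this transcription factor family, had 9, 3 and 10 reads. It was the lower isotig of the 6 in deep aestivation, by 2.83-fold (0.706 to 16.2), an interval that holds equal rates. Selenide, water dikinase 2 (isotig06145), which makes the selenium donor for selenocysteine, had 124, 40 and 65 reads and fell 2.92-fold in deep aestivation (2.03 to 4.28), with arousal 1.95-fold below non-aestivation (1.43 to 2.68). Cystathionine-beta-synthase, on the route to cysteine, had 48, 27 and 29 reads, cysteine dioxygenase 30, 35 and 20, and gamma-glutamyltransferase 1-like 20, 17 and 18. Of these 3, 0 passed 2-fold, and they are too few to set against the background share. Among the isotigs analysed here none was named ferritin, sulfiredoxin or methionine sulphoxide reductase.

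**Figure D5:**
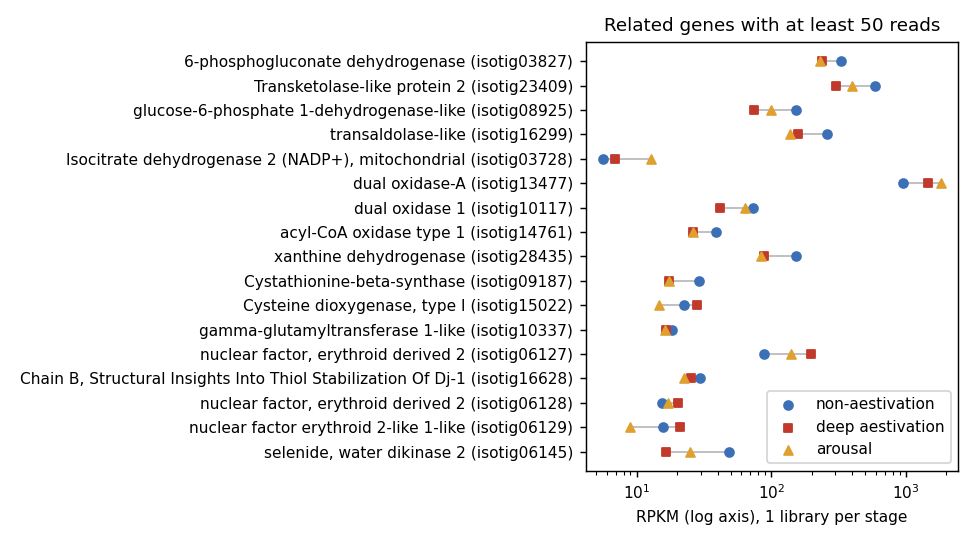
RPKM (log axis) of related genes with at least 50 reads over the 3 libraries, 1 library per stage. Dual oxidase-A stands highest in arousal (1843 RPKM), nuclear factor, erythroid derived 2 on isotig06127 in deep aestivation (196 RPKM), and the pentose phosphate enzymes in non-aestivation.

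Apart from their names the members resembled other named transcripts. Their median isotig length was 1097 bases, against 1132 for isotigs with a protein match, and their median read sum 70, against 66. The median share of an isotig's bases covered by reads was 64.6%, 45.0% and 51.3% in the 3 libraries, against 59.1%, 46.9% and 47.2% for isotigs with a protein match. Of the 66 best matches 16 were in the purple sea urchin Strongylocentrotus purpuratus, 14 in the acorn worm Saccoglossus kowalevskii and 4 in Apostichopus japonicus itself.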

How the data were processed

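Per the labels, poly(A) RNA was fragmented and primed with random hexamers, with no step that keeps strand, and the submitters' processing notes name CASAVA 1.5. No aligner is named (not given in the sources used here). The authors deposited, per the file headers, for each isotig the count of uniquely mapped reads, the RPKM made from it by isotig length and library total, and the percent of bases covered. All RPKM values were recomputed from the counts within a relative tolerance of 1e-09. Isotigs absent from 1 library's table were set to 0 reads. Because unique mapping can divide or lose the reads of close copies, sums over a name are given too.

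The members and lists were chosen with earlier results of these data known. Named members are, in each role, the 2 with the highest mean RPKM, and every one with at least 50 reads that differed 2-fold with an interval leaving out equal rates. Isotig08777, isotig14181, isotig16054, isotig17891, isotig27363, isotig08778, isotig05338, isotig11751 (peroxidasin), isotig15621, isotig06172, selenoproteins L and N, the ovoperoxidases, the Cu-Zn superoxide dismutase pair and the related genes short of 2-fold or under 50 reads were named after their values were seen. So were isotig18508 and the single isotigs of the muscle and coelomocyte lists. Fold intervals are conditional binomial (Clopper-Pearson) and, as reads carry no molecular identifiers, cover counting error only. Protein-name joins to genome genes were not made, and no sequences or genome positions are given. Other scalings used edgeR 4.0.16 and DESeq2 1.42.0 factors in R 4.3.3; computations used Python 3.11.15, numpy 2.4.6, pandas 2.3.3 and scipy 1.17.1.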

Additional observations from a re-analysis of the deposited data

How the results depend on the processing

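No paired analysis was possible because each stage has 1 library, and for the same reason no replicate could be left out. Depth limits the members under 50 reads, whose intervals are wide. TMM factors shifted all log2 ratios by 0.11 in deep aestivation and 0.12 in arousal against non-aestivation, and median-of-ratios factors by 0.12 in both. Centring on isotigs with a protein match, chosen after seeing the data, shifted them by 0.36 and 0.40. Pseudocounts of 0.1 and 1, the interval criterion and totals without the 10 leading isotigs kept the 6 counts of members within 1.5 times of those reported. In deep aestivation against non-aestivation 13 members were lower and 2 higher, with a median of -0.73. With no filter 4 were higher (median -0.58). With at least 100 reads 5 were lower and 1 higher (median -0.40). Centring left 7 lower (median -0.37), and name sums left 1 higher (median -0.43). The median was -0.62 with TMM, -0.61 with median-of-ratios factors and -0.60 without the weak matches (selenoprotein H and the vitellogenin fusion, also tried after seeing the data). In arousal against deep aestivation (3 higher, 2 lower) no filter gave 7 and 8, at least 100 reads 0 and 0 (median 0.20), and name sums 1 higher. In arousal against non-aestivation (2 higher, 12 lower, median -0.26) no filter gave 6 and 20, at least 100 reads 0 and 2, and name sums 1 higher. TMM and median-of-ratios factors each left 7 lower (medians -0.15 and -0.14), and centring gave 5 and 5 with the median reversed to 0.15. Of 84 ratios of named isotigs, all 84 stayed within their interval with TMM. Of the 21 that can be summed over a name 17 did, and 1 reversed, selenoprotein P isotig06174 in deep aestivation, to 1.21. The share of higher among the calls rose from 13.3% to 23.1% with TMM and 30% centred in deep aestivation, and in arousal against non-aestivation from 14.3% to 30% and 50%. The shifts come with the factors themselves; the cause of the other changes was not tested.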
